A study of Mus musculus with 8 samples.

Results

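Tumor 36, 1 of 8 subcutaneous mouse tumors profiled by bulk RNA sequencing, held most of the transcripts of a set of genes outside the contractile filaments, many of which work in skeletal muscle. The members were chosen from the authors' deposited table of 752 genes as those for which tumor 36 held at least 50% of the normalized counts summed over the 8 tumors. A normalized count is the number of reads of a gene divided by a size factor of its library. The mark was passed by 76 genes. Of these, 35 were set aside because their cellular component annotation names the myofibril, and 2 more (Mb and Mylpf) because they are annotated to the immune system process. The remaining 39 genes are described here. Since tumor 36 chose them, their level in that tumor and their difference between the groups are descriptions and carry no test.

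The tumors grew from MC38, a C57BL/6 mouse colon adenocarcinoma cell line, injected under the skin of germ-free C57BL/6 mice, labelled WT, and were dissected on day 23. Tumors 11, 17, 18 and 19 came from mice given an antibody against PD-1. Tumors 36, 37, 39 and 40 came from mice given the same antibody and Fusobacterium nucleatum (ATCC-25586) by gavage. All 8 tumors share the antibody, the cell line and a host without other microbes, and no untreated tumor is among them. As labelled, the groups differ by the bacterium. Each library carries a tumor number, and whether every tumor came from its own mouse is not stated, so p-values measure only the spread between these samples, which may be technical. The table is a selected one. Every gene in it has an unadjusted p of at most 0.04995 in the authors' test and an absolute log2 difference above 1 between the groups, and genes outside it were not analysed here. Recovered reads in the table ranged from 97511 to 308139 per tumor, and relative size factors from 0.644 to 1.27. A listed 0 allows up to 3 reads, which is a normalized count of 2.37 to 4.66, and covers counting error only. In bulk tissue, fewer cells of a type and less RNA per cell cannot be told apart.

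A skeletal muscle fibre contracts when an action potential in its membrane opens calcium release from the sarcoplasmic reticulum. Ion channels set the membrane potential, calcium-binding proteins and pumps end the contraction, and creatine kinase, glycogen and mitochondria supply the ATP. The genes of this program are switched on during differentiation by basic helix-loop-helix factors of the MyoD family, which bind E-box sequences, together with factors of the MEF2 family. Mature fibres also exchange several housekeeping proteins for muscle forms, among them a subunit of cytochrome c oxidase and a translation elongation factor.

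Promoter sequences show what some members share in their letters, which the choice of genes did not use. RefSeq start sites on GRCm38.p6 were matched for 20 of the 39 genes, with 25 windows of 250 bases upstream of a start. The E-box letters CANNTG, searched on both strands, were found in 17 of the 25 windows, against 66.2% of 32851 windows of all genes. The form CAGCTG, which CANNTG includes, was in 7 windows, against 13% of all. The MEF2 consensus was in 6 windows, of 6 genes (Pvalb, Ppp1r3a, Fbxo40, Alpk3, Rpl3l and 2310002L09Rik), against 2.92% of all. In 3 of these 6 windows the MEF2 match also holds the letters TATAAA on either strand, against 17% of all windows with a MEF2 match, so the same bases fit a TATA box. These matches are descriptions of sequence, not binding sites. The 4 windows below hold a MEF2 match and no annotated exon. They are shown 5′ to 3′ on the strand of the gene with MEF2 and CANNTG matches in capitals.
Pvalb, chr15:78206401-78206650, minus strand: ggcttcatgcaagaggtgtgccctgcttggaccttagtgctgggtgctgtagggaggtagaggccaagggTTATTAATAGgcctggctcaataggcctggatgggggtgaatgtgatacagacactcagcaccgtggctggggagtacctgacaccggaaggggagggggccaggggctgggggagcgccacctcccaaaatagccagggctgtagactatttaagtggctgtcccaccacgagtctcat
Ppp1r3a, chr6:14755275-14755524, minus strand: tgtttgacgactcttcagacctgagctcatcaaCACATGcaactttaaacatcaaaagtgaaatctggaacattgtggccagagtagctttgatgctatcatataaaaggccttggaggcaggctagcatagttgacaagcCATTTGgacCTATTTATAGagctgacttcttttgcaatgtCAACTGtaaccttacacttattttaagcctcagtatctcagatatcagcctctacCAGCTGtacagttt
Fbxo40, chr16:36990468-36990717, minus strand: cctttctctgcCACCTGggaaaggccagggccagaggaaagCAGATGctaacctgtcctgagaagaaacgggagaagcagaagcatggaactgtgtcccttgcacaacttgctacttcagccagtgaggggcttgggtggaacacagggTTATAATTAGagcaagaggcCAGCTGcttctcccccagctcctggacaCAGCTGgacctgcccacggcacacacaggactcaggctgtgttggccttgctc
Alpk3, chr7:81057350-81057599, plus strand: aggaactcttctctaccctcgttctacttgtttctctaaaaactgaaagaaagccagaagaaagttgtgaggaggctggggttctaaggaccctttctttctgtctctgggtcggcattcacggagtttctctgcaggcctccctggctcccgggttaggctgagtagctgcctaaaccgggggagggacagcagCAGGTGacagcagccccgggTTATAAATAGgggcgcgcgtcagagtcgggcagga
The Pvalb window has 1 MEF2 match and no CANNTG. The windows of Ppp1r3a and Fbxo40 each have 4 CANNTG matches, of which 1 and 2 are CAGCTG, beside 1 MEF2 match. In Ppp1r3a and Alpk3 the MEF2 match also holds TATAAA, and in Alpk3 it begins 35 bases before the start site.

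Across the 8 tumors the 39 genes had a median log2(normalized count + 1) of 6.23 in tumor 36 and of 2.16, 0.85 and 0.00 in tumors 37, 39 and 40. It was 0.00 in each of the 4 anti-PD-1 tumors. Tumor 36 had more than 3 reads in all 39 genes, tumor 37 in 19, tumor 39 in 15, tumor 40 in 10, and the anti-PD-1 tumors in 3 to 6. No read of 25 genes (64.1%) was listed in any of the 4 anti-PD-1 tumors, and 7 of them had reads in tumor 36 alone. Of all 752 genes, 205 (27.3%) had no read in these 4 tumors. Only the 399 genes higher with F. nucleatum could be without one, and all 39 members are higher. The share of 64.1% is therefore to be set against 205 of 399 genes. Most of the 39 members were low even in tumor 36: 12 had at least 1 FPKM there (fragments per kilobase of transcript, scaled to library depth) and 27 had less. The reads behind the tumor 36 values ranged from 11 to 6892 with a median of 92, and 12 genes had fewer than 50.

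**Figure D1:**
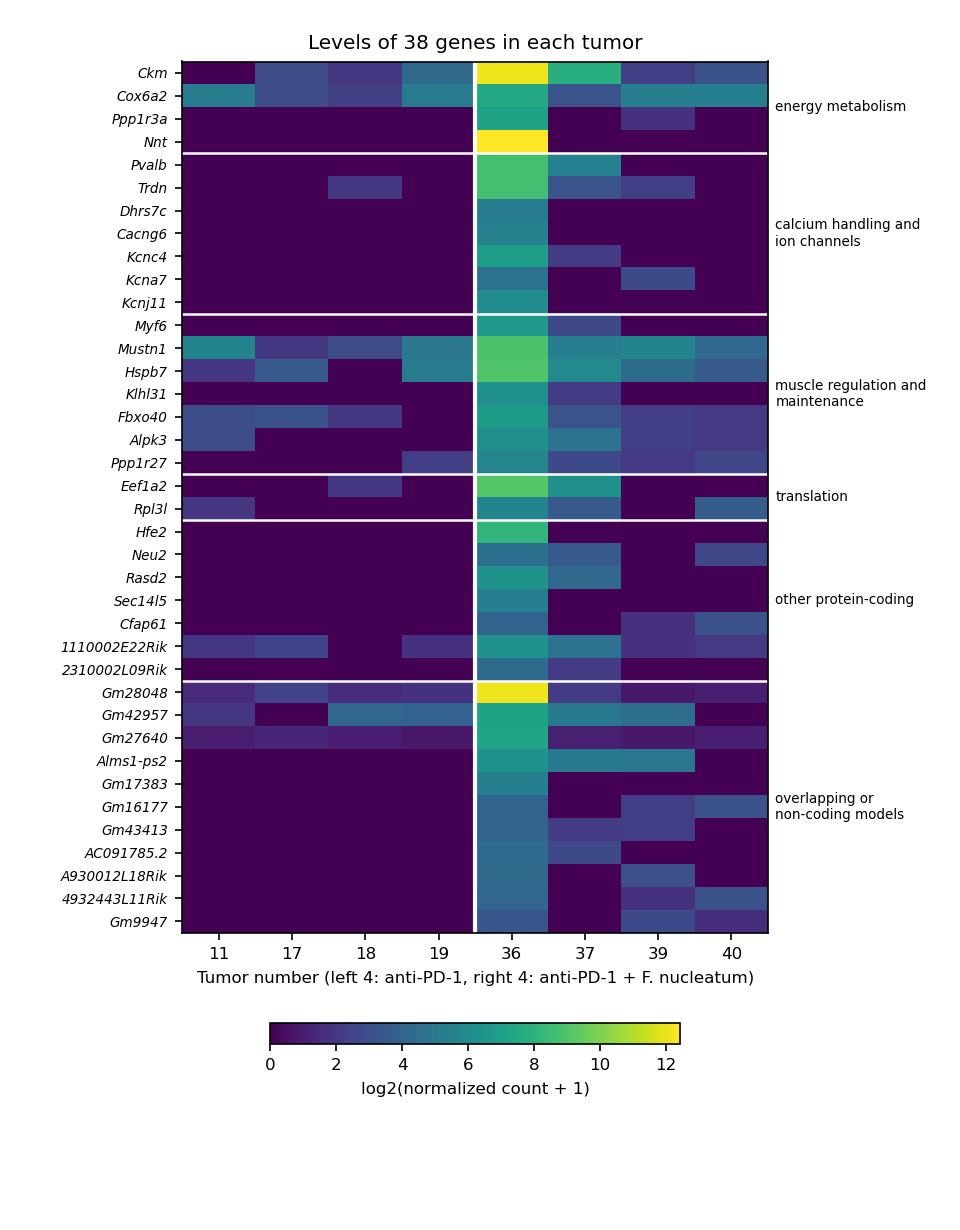
Heat map of log2(normalized count + 1) for 38 of the 39 genes (rows, grouped by role) in each of the 8 tumors (columns, by tumor number). Tumor 36 is the brightest column in every row, with a median of 6.23 over the 39 genes, and tumor 37 follows at 2.16.

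The share held by tumor 36 ran from 52.3% to 100% with a median of 81.5%, and 16 genes were at 90% or more. The next highest tumor was 37 for 19 genes, 39 for 6, 40 for 5 and the anti-PD-1 tumor 17 for 2. The 3 genes just inside the 50% mark were Cox6a2 (52.3%), the antisense transcript Gm9947 (53.2%) and the pseudogene Alms1-ps2 (56.9%). The 3 just outside it were CT025653.1 (49.9%), Cdk19os (49.2%) and Card14 (48.1%). Each of these 6 genes also had reads in another F. nucleatum tumor, and Cox6a2 and Card14 had reads in all 4 anti-PD-1 tumors.

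**Figure D2:**
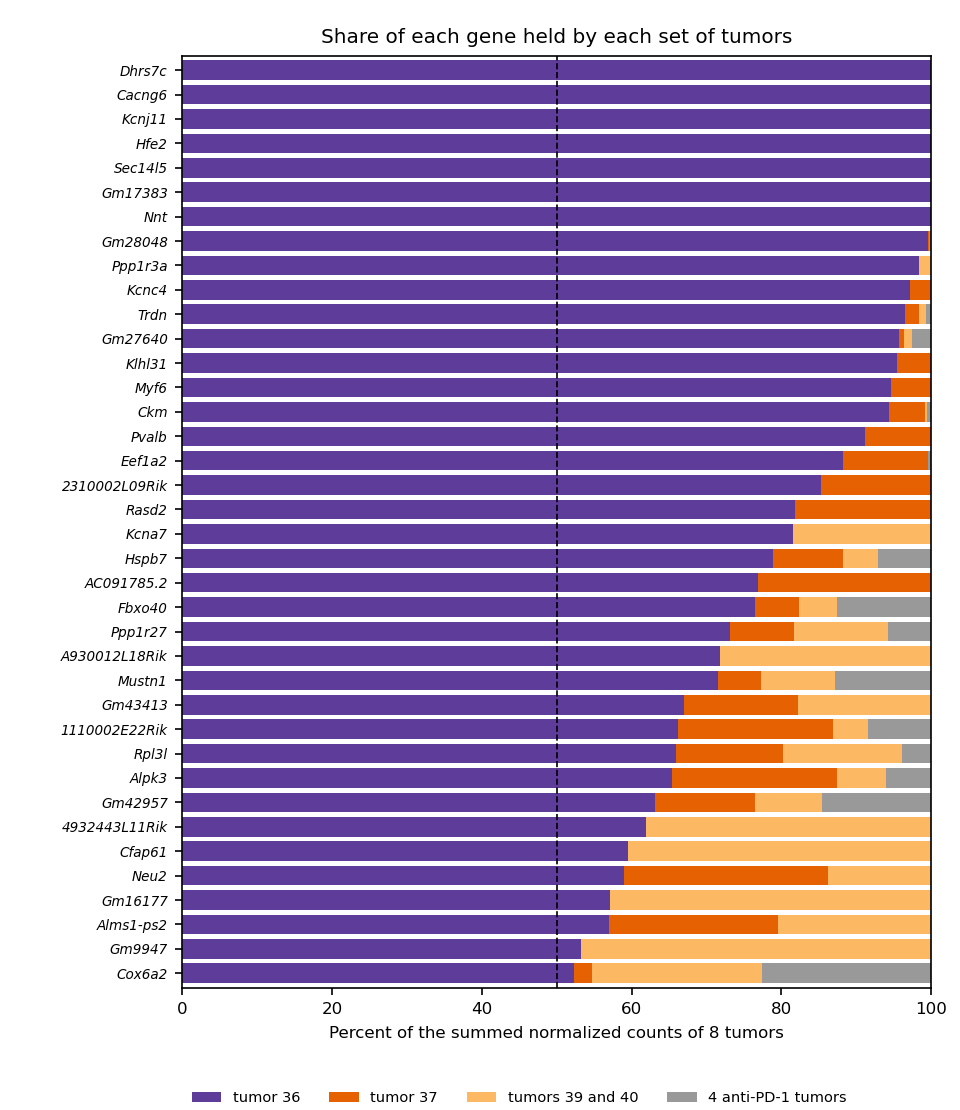
Stacked bars of the percent of the summed normalized counts of 38 genes held by tumor 36, tumor 37, tumors 39 and 40 together, and the 4 anti-PD-1 tumors together; the dashed line marks 50%. Shares of tumor 36 run from 52.3% for Cox6a2 to 100% for 7 genes, and the grey part is largest in Cox6a2 at 22.6%.

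Energy metabolism was represented by 4 genes. Ckm encodes the muscle creatine kinase, which regenerates ATP from phosphocreatine. It had normalized counts of 0, 6.21, 3.05 and 18.9 in tumors 11, 17, 18 and 19, and of 4488, 231, 4.03 and 7.4 in tumors 36, 37, 39 and 40. Tumors 36 and 37 stood above all others, while tumors 39 and 40 lay within the anti-PD-1 range. The log2 difference of the group means was 4.05 ± 2.46 (SE, n = 4 each), and 2.12 without tumor 36. Ckm lies on chromosome 7 from 19404776 to 19422841 (GRCm38), and 15.5% of its exonic bases are shared with a gene on the opposite strand, A930016O22Rik. Ppp1r3a encodes the subunit that brings protein phosphatase 1 to muscle glycogen. It had a normalized count of 141 (176 reads) in tumor 36 and of 2.42 (3 reads) in tumor 39, and was listed at 0 elsewhere.

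Cox6a2, the heart and muscle form of a cytochrome c oxidase subunit, was distributed differently. It had normalized counts of 36.3, 6.21, 4.06 and 32.3 with anti-PD-1 alone, and of 183, 8.11, 39.5 and 40.2 in tumors 36, 37, 39 and 40. Tumor 36 was again highest, but tumor 37 was among the low tumors, and tumors 11, 19, 39 and 40 lay close together between 32.3 and 40.2. Its log2 difference was 1.49 ± 1.16 (SE, n = 4 each). A stretch of 10.3% of its exonic bases is shared with Itgad on the opposite strand.

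The remaining metabolic gene is listed without a symbol in the authors' deposited table, as ENSMUSG00000116207, and GENCODE M21 names it Nnt (chromosome 13, 119335528 to 119408952). Nnt encodes the nicotinamide nucleotide transhydrogenase of the inner mitochondrial membrane, which makes NADPH, and the C57BL/6J substrain is known for a deletion in this gene. It had 6892 reads in tumor 36, a normalized count of 5529 and 26.8 FPKM, the highest FPKM of the 39 genes there, and was listed at 0 in the other 7 tumors. GENCODE M21 holds another Nnt gene at the same place, and 100% of the exonic bases of ENSMUSG00000116207 are shared with it on the same strand. Reads cannot be assigned between the copies with certainty, and the values of the other copy were not analysed here. The other energy genes of tumor 36 share no such same-strand overlap.

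Calcium handling and ion channels made up 7 genes. Pvalb encodes parvalbumin, the cytosolic calcium buffer of fast fibres. It had no reads with anti-PD-1 alone or in tumors 39 and 40, and had normalized counts of 439.6 in tumor 36 and 42.9 in tumor 37. Trdn encodes triadin, which anchors the calcium release channel complex in the sarcoplasmic reticulum. It had 414 in tumor 36, 8.11 in tumor 37, 4.03 in tumor 39 and 0 in tumor 40, and among the anti-PD-1 tumors 3.05 (3 reads) in tumor 18 and 0 in the rest. Both genes were thus concentrated in tumor 36. The remainder of Pvalb was in tumor 37, and that of Trdn was 7, 5 and 3 reads in tumors 37, 39 and 18. Dhrs7c, a short-chain dehydrogenase of the sarcoplasmic reticulum, and Cacng6, a gamma subunit of voltage-gated calcium channels, were listed at 0 outside tumor 36, where they had 46 and 55 reads.

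The 3 potassium channel genes followed tumor 36 as well. Kcnc4 encodes a fast voltage-gated channel. It had normalized counts of 119 in tumor 36 and 3.48 in tumor 37, and 0 in the other 6. Kcnj11, the pore of the ATP-sensitive potassium channel, had 64.2 in tumor 36 (80 reads) and 0 in the other 7. Kcna7, a voltage-gated channel of muscle and heart, had 24.9 in tumor 36 and 5.64 in tumor 39 (31 and 7 reads), with 0 elsewhere, tumor 37 included. Of the 7 genes of this group, 6 were listed at 0 in every anti-PD-1 tumor, and in tumor 36 they ranged from 0.182 to 6.83 FPKM.

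Regulators and maintenance proteins of muscle made up 8 genes. Myf6, the MyoD family factor most abundant in mature fibres, had normalized counts of 103 in tumor 36 and 5.8 in tumor 37 and was listed at 0 in the other 6. Myog, the family member of differentiating myoblasts, is in the table but was no member: it had 4.01 (5 reads) in tumor 36 and 19.7 (17 reads) in tumor 37, with 0 elsewhere. The pair thus had their highest values in different tumors, at few reads for Myog.

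Mustn1, a small nuclear protein of musculoskeletal tissue, was read in all 8 tumors, as was Cox6a2. It had normalized counts of 47.8, 3.11, 6.1 and 29.2 with anti-PD-1 alone, and of 481, 39.4, 48.4 and 18 in tumors 36, 37, 39 and 40. Without tumor 36 the ranges of the groups overlapped broadly. Hspb7, a small heat shock protein of striated muscle, had 2.87, 10.9, 0 and 33.1 with anti-PD-1 alone and 521, 61.4, 20.2 and 10.6 with F. nucleatum. Tumor 19 of the anti-PD-1 group exceeded tumors 39 and 40 here. Log2 differences were 2.18 ± 1.31 for Mustn1 and 3.08 ± 1.63 for Hspb7 (SE, n = 4 each).

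**Figure D3:**
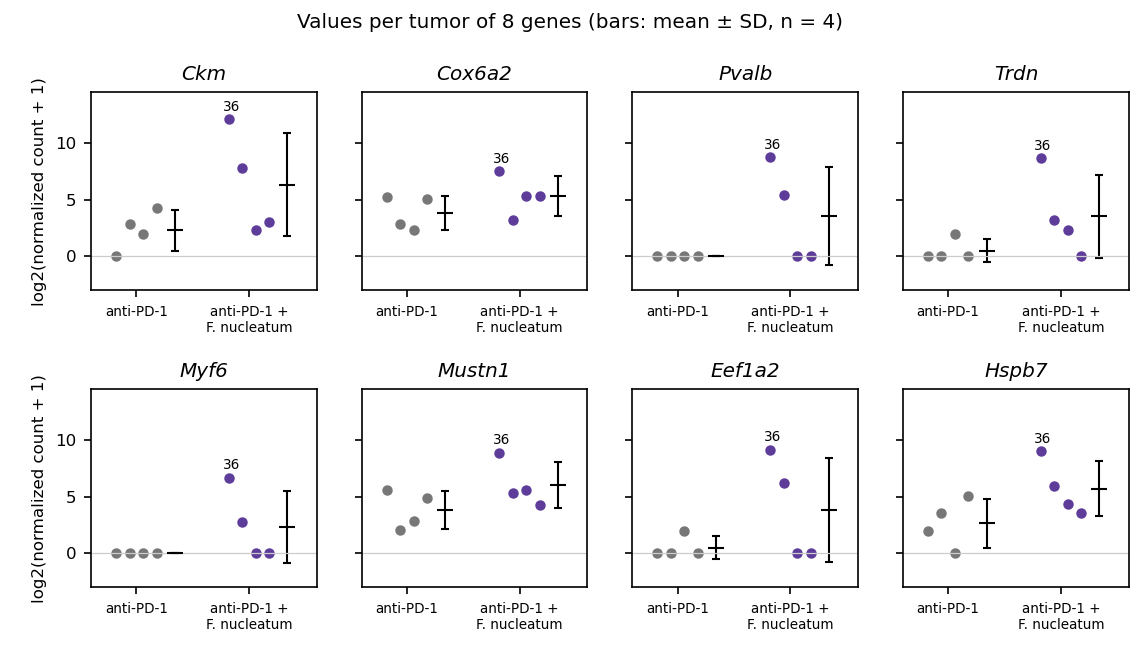
Log2(normalized count + 1) of 8 genes in the 4 anti-PD-1 and the 4 anti-PD-1 + F. nucleatum tumors; points are tumors, horizontal ticks with bars are means ± SD (n = 4), and tumor 36 is marked. Tumor 36 is the highest point in every panel; in Cox6a2 the other F. nucleatum tumors lie within or near the anti-PD-1 range.

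The remaining genes of this group had fewer counts in tumor 36 than Mustn1 and Hspb7. Fbxo40, a muscle F-box protein of ubiquitin ligases, had a normalized count of 107 in tumor 36 and between 0 and 8.11 in the other 7 tumors. Klhl31, a kelch-repeat protein of muscle, had 73.8 in tumor 36, 3.48 in tumor 37 and 0 elsewhere. Alpk3, an alpha-kinase of striated muscle, had 72.2 in tumor 36, 24.3 in tumor 37, 4.03 in tumor 39, 3.17 in tumor 40 and 6.69 in tumor 11. Ppp1r27, a regulatory subunit of protein phosphatase 1, was detected in all 4 F. nucleatum tumors (49.7, 5.8, 3.23 and 5.28) and in tumor 19 (3.94). These last 2 genes had reads in every F. nucleatum tumor, but each had 1 anti-PD-1 tumor within that group's range.

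Muscle forms of the translation machinery were represented by 2 genes. Eef1a2, the elongation factor that replaces its paralog Eef1a1 in mature muscle and neurons, had normalized counts of 578 in tumor 36, 74.2 in tumor 37, 3.05 (3 reads) in tumor 18 and 0 in the other 5. Rpl3l, the muscle paralog of ribosomal protein L3, had 48.1 in tumor 36, 10.4 in tumor 37, 11.6 in tumor 40 and 2.87 in tumor 11. Both have close paralogs whose reads the counting could split.

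Among 7 other protein-coding genes, Hfe2 had the highest level. It encodes hemojuvelin, a co-receptor of bone morphogenetic proteins made in skeletal muscle and liver, where it controls hepcidin and iron. Hfe2 had 360 reads in tumor 36 (2.3 FPKM) and was listed at 0 in the other 7 tumors. Neu2, a cytosolic sialidase, had normalized counts of 22.5, 10.4, 0 and 5.28 in tumors 36, 37, 39 and 40 and 0 with anti-PD-1 alone. Rasd2, a small GTPase best known from the striatum, had 78.6 in tumor 36 and 17.4 in tumor 37 only. Sec14l5, of a family of lipid-binding proteins, had 40.9 in tumor 36 only. Cfap61, a protein of motile cilia, had 14.4 in tumor 36 (18 reads), 2.42 in tumor 39 and 7.4 in tumor 40. The uncharacterized genes 1110002E22Rik and 2310002L09Rik had 77.8 and 20.1 in tumor 36, and their next highest tumor was 37 at 24.3 and 3.48.

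The last 11 members are gene models that overlap other genes or code for no protein, and their annotation sets how far they can be read. Gm28048 (chromosome 11, 22834744 to 22982090) is a model that spans Commd1 and B3gnt2, and 99.9% of its exonic bases are shared with them on the same strand. It had 5560 reads in tumor 36, a normalized count of 4460.2, and 1 to 3 reads in each of the other 7 tumors. Gm27640, a misc_RNA of 147 bases inside Tug1, shares 100% of its bases with it on the same strand, and had 204 reads in tumor 36 and 1 read in each other tumor. Gm42957, which shares 70.6% with other genes, had normalized counts of 148, 31.3, 21 and 0 in tumors 36, 37, 39 and 40 and 2.87, 0, 17.3 and 14.2 with anti-PD-1 alone. With Nnt, these are the 4 members that share exonic bases on the same strand with another gene, and all 4 share more than 50% of them. Over 50% was shared by 33 genes (4.39%) of the table as a whole. Nnt and Gm28048 held most of the reads: without them the summed normalized count of the members in tumor 36 was 9080.1 in place of 19069.

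The other 8 models were read rarely. The processed pseudogene Gm17383 had 50 reads in tumor 36 and 0 elsewhere. It lies within AC157548.1 on the opposite strand of chromosome 18, a long non-coding RNA of the same table that had 3695 reads in tumor 19 and 0 in the other 7 tumors. The 2 transcripts of this locus were thus each listed in a single, different tumor. Alms1-ps2, a pseudogene related to Alms1, had normalized counts of 78.6, 31.3 and 28.2 in tumors 36, 37 and 39 and 0 in the other 5. Gm16177 had 15.2 in tumor 36, 4.03 in tumor 39 and 7.4 in tumor 40, and Gm43413 had 15.2, 3.48 and 4.03 in tumors 36, 37 and 39. AC091785.2 had 19.3 in tumor 36 and 5.8 in tumor 37, and A930012L18Rik had 18.5 in tumor 36 and 7.26 in tumor 39. The antisense transcripts 4932443L11Rik and Gm9947 had 16 and 8.82 in tumor 36, with at most 7.4 in any other tumor. Apart from Gm17383 and Alms1-ps2, these 8 models had 11 to 24 reads in tumor 36.

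Lists of muscle genes for 7 roles place the members in their pathways, each counted as genes in the table out of genes listed, all of those found being higher with F. nucleatum in group mean. Their median log2 differences were 1.49 (mitochondria and fat), 1.86 (channels), 2.02 (regulators), 2.63 (glycogen), 3.11 (turnover), 3.42 (creatine) and 3.56 (calcium), against 1.18 for all genes of the table. Of all 752 genes, 399 were higher, so the 1.18 mixes both directions, which the list medians do not. The table was chosen by this contrast and the members by tumor 36, so these directions and medians are descriptions and carry no test. The calcium handling list had 5 of 27 in the table, all 5 highest in tumor 36. Pvalb and Trdn are members, and Ryr1, Atp2a1 and Casq1 fell under the myofibril exclusion. Atp2a1, the calcium pump of fast fibres, had 31.7 FPKM in tumor 36, 1.99 in tumor 37 and at most 0.0246 in any other tumor. The glycolysis and glycogen list had 2 of 20 (Ppp1r3a and Pygm), the creatine and oxygen list 2 of 11 (Ckm and Mb), and the mitochondrial and fat list 1 of 20 (Cox6a2). The channel and nerve-muscle junction list had 5 of 20, and the small heat shock protein Hspb7 was counted in it. The acetylcholine receptor subunits of this list, Chrna1 and Chrnd, were highest in tumor 37 and had reads in both groups. The list of myogenic regulators had 2 of 21 (Myf6 and Myog), and that of protein turnover and signaling 5 of 32, among them the member Klhl31. In the authors' deposited table, the calcium, creatine, channel and turnover lists each held 1 gene with a false discovery rate (FDR) under 0.05. The other 3 lists held none. In this direction 114 genes (15.2%) of the table were called, all among its 399 higher genes.

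Markers of cell types were read in the same table. Of 16 defining genes of skeletal muscle, 15 were present and all 15 were highest in tumor 36. Their summed level was 2.01 to 2.58 FPKM in the anti-PD-1 tumors and 410, 20.7, 4.31 and 2.88 FPKM in tumors 36, 37, 39 and 40. Mybpc1, Myh2 and Tnnc2 had no reads with anti-PD-1 alone. Genes of fast fibres were present as 13 of 17 (239 FPKM summed in tumor 36) and those of slow fibres as 2 of 12 (2.58 FPKM), Mybpc1 and Csrp3. Of keratinocyte markers 9 of 12 were present, all highest in tumor 37 (197 FPKM summed), with 0.449 FPKM in tumor 36 and 0.392 to 0.472 in the anti-PD-1 tumors. Cardiac and smooth muscle lists each had 1 of 10, Actc1, which was lower with F. nucleatum (log2 difference -2.02), and Des, which was highest in tumor 36. The table holds no gene of the lists for adipocytes, nerve and Schwann cells, tendon and fascia, or salivary glands. The part of any of these cell types in the members' levels was not tested. Of 8 genes of colon epithelium, a list added after the data were seen, Epcam alone was in the table, with 160 reads in tumor 37, 3 in tumor 36 and 0 in the other 6.

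Between the groups, the 39 genes had a median log2 difference of 2.18 (F. nucleatum minus anti-PD-1). That of the 752 genes of the table was 1.18. The table median mixes 399 higher genes with lower ones, while all 39 members were higher. Here and below, the medians of members and table therefore cannot be compared as sizes of a difference. As 25 of the 39 were at 0 with anti-PD-1 alone, the value of 2.18 depends on the 1 added before taking logs. As a log2 ratio of mean normalized counts, with those 25 set to 3 reads over the group, the median was 3.71. Without tumor 36 the median log2 difference was 1.02, and that of all genes 0.59. In that setting 30 genes stayed higher in the F. nucleatum group, 20 of them by more than 1, 7 were equal and Gm28048 and Gm27640 were lower. Over all 752 genes, 399 were higher with all tumors, 386 without tumor 36, and 354 without it by more than 1. All 39 members were higher with all tumors, so their shares cannot be compared with shares of the 752. The count of higher genes went from 39 to 30 among the members and from 399 to 386 in the table. As tumor 36 chose the members, these counts are descriptions and carry no test. Without tumor 37 the median was 2.41 and that of all genes 0.00. Without tumors 36 and 37 together the median was 0.17 and that of all genes -0.11. The 6 largest differences without tumor 36 were those of Alms1-ps2 (3.29), Alpk3 (2.28), Ckm (2.12), Neu2 (2.06), Hspb7 (1.98) and Ppp1r27 (1.92).

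**Figure D4:**
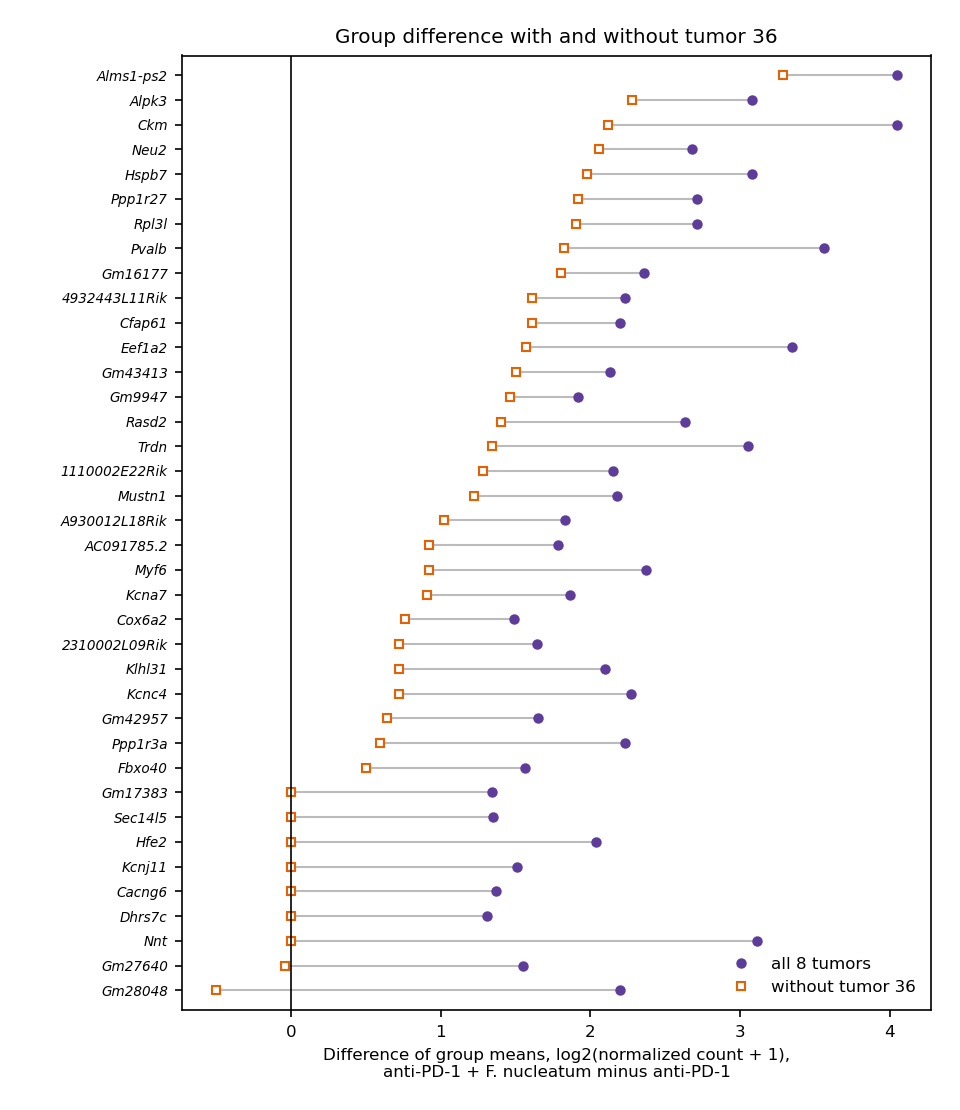
Difference of group means in log2(normalized count + 1), anti-PD-1 + F. nucleatum minus anti-PD-1, for each of 38 genes with all 8 tumors (filled circles) and without tumor 36 (open squares). The median over the 39 genes is 2.18 with all tumors and 1.02 without tumor 36; 7 genes move to 0 and Gm28048 and Gm27640 below it.

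In none of the 39 genes did all 4 F. nucleatum tumors exceed all 4 anti-PD-1 tumors, whereas in 54 genes (7.18%) of the table they did. Only the 399 higher genes of the table could meet this, and all 39 members are higher. In the authors' deposited table, 114 genes (15.2%) had an FDR under 0.05 and were higher with F. nucleatum, which again only the 399 higher genes could be. Of the 39 members, 6 had an FDR under 0.05. These were Nnt (4.51e-11), Pvalb (1.04e-07), Hfe2 (1.12e-07), Kcnj11 (7.39e-07), Gm28048 (0.011) and Ckm (0.0376). Of these, 3 had reads in tumor 36 alone, so the FDR does not measure a change shared by the tumors of a group. A limma fit over the 752 genes called 0 of the 39 at an adjusted p under 0.05, and in the same direction 0% of all genes. At an unadjusted p under 0.05 it had 7 of the 39 genes and 323 of the 752, and voom on the recovered reads had 3 of the 39 and 258 of the 752, with 0 called after adjustment. The contrast is the one that chose the table, so nothing is read from these counts.

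The 35 myofibril genes that passed the same 50% mark give the scale of comparison. They had a median share in tumor 36 of 90.6% and a median of 812 reads there, against 81.5% and 92 reads for the 39 genes. In tumor 37 the median gene had 5.5% of its tumor 36 level among myofibril genes and 4.71% among the 39. Of the 35 myofibril genes, 9 (25.7%) had no reads with anti-PD-1 alone. The same held for 205 of the 399 genes higher with F. nucleatum, the only genes that could meet this. All 35 myofibril genes are among those 399. In 4 of the 35 myofibril genes the groups did not overlap, against 54 genes (7.18%) of the table, again all among the 399 higher ones. These values were used by the rule in both sets, and no test of their difference was made. Annotation was used for the exclusions alone, which removed myofibril and immune terms. Of other terms, 5 of the 39 genes (12.8%) have a channel activity term, against 2.79% of the table. Counted separately, 5 of the 39 genes (12.8%, among them Alpk3, Trdn, Fbxo40 and Myf6) have a term that names muscle, against 8.24% of the table. The table share counts 62 genes, 33 of them among the 35 myofibril genes set aside. A mitochondrial component term is held by 10.3% (Cox6a2, Hspb7, Kcnj11 and 2310002L09Rik), against 3.86%. A term that names calcium is held by 10.3%, against 8.78% of the table, where 11 of the 66 such genes are myofibril genes set aside. A KEGG pathway is held by 23.1%, against 25.7%. The genes lie on 17 chromosomes, with at most 6 on any of them, chromosome 7.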

How the data were processed

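Per the labels' protocols, TRIzol RNA from 8 tumors went into TruSeq libraries that keep the strand. Named in the submitters' processing notes, with no role or order, are STAR 2.5, DESeq 1.22.1, Cuffnorm, FastQC and the build mm10. How counting used the strand, and the test behind the p-values, are not given in the sources. The authors' deposited table gives log2 values, FPKM, a p-value and an FDR per gene. Read as log2(normalized count + 1), the deposited log2 values hold reads: in each tumor 100% of the values above 0 were whole multiples of the value of 1 read at a tolerance of 0.1 read, which recovers reads but no library total. FPKM values are the authors' and compare levels between genes. 

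Shares, group means and differences were computed from the normalized counts and log2 values. Positions and exon overlaps came from GENCODE M21 (GRCm38, the assembly of mm10), where all 752 IDs were found, and promoters from RefSeq (GRCm38.p6). The limma 3.58.1 fit (R 4.3.3, eBayes with trend, Benjamini-Hochberg adjustment over the table) was tested on simulated data. Python 3.11.15, pandas 2.3.3, numpy 2.4.6 and matplotlib 3.10.9 served for the rest. Groups followed the treatment labels, and no batch is given in them. The members, role lists and markers were chosen with earlier results of these data known. The rule for named genes took up to 5 members per role list, the 3 genes on each side of the 50% mark, the 8 members outside the lists with most FPKM, those with the highest share, and the 6 with the largest difference without tumor 36; all other members are named too, except 1 that enters the counts and is not reported here, in role groups set after their values were seen. Alternatives were the FPKM scale, other share marks, a filter at 1 FPKM, median centring, no trend, array weights, a stricter threshold and leaving out each tumor. Those added after seeing the data were voom, tumors 36 and 37 left out together, and members without a same-strand overlap.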

Additional observations from a re-analysis of the deposited data

Results flagged for a closer look

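Of 60 sets of 4 log2 values examined (29 named genes and the median over the 39 members, in each group), 13 held a tumor that stood apart from the other 3 by Dixon's test, where the gap to the nearest value is divided by the range. Chance flags about 1 in 20 sets of continuous values. Of the 13 flags, 11 had a ratio of 1 because the other 3 values were tied at 0, where that rate does not apply. The members were also chosen for 1 high tumor, so flags of tumor 36 follow from that choice. In the F. nucleatum group tumor 36 stood apart with a ratio of 1 in Nnt, Hfe2, Kcnj11, Cacng6, Dhrs7c, Sec14l5 and Gm17383, of 0.96 in Gm27640 and of 0.88 in Gm28048. In the anti-PD-1 group the ratio was 1 where a single tumor had a few reads and the other 3 were listed at 0: tumor 18 in Trdn and Eef1a2 (3 reads each), tumor 19 in Ppp1r27 (5 reads) and tumor 11 in Alpk3 (7 reads).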

How the results depend on the processing

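The number of genes was 44 with shares from FPKM, 55 and 33 at marks of 40% and 60%, 16 at a mark of 90% and 6 when the mean FPKM had to reach 1. With 1 other tumor left out it ranged from 39 to 66, the highest value without tumor 37 (64 without tumor 40), and the 39 genes were among those found each time. The median share of tumor 36 ranged from 81.5% to 98.3%, the highest without tumor 37. The median log2 difference was 0.14 on log2(FPKM + 1) (27 members had under 1 FPKM in tumor 36), 0.63 on log2(FPKM + 0.1), 0.17 without tumors 36 and 37, and 1.02 (without tumor 36) to 2.69 (without tumor 40) with 1 tumor left out. After median centring of the tumors it was 1.57, while the median of all genes went from 1.18 to 0.57. Without the 4 members that share exonic bases on the same strand it was 2.18. Without tumor 36 the difference reversed in Gm28048 (-0.50; up to 3.26 with another tumor left out) and Gm27640 (-0.04; up to 2.13). No other named gene reversed with a tumor left out or on log2(FPKM + 1). Limma called 0 members except with array weights (6), which gave tumor 37 a weight of 0.058 and tumor 36 one of 0.392, and with a tumor left out (0 to 4). Without tumor 37 it called Gm16177, Cfap61, 4932443L11Rik and Gm9947, and without tumor 40 Alms1-ps2. Over the table it called 0 genes, but 125 with median centring (7 of them higher with F. nucleatum), 238 with array weights (86 higher), 140 without tumor 36 (13 higher), 33 without tumor 37 (25 higher), 2 without tumor 18 (0 higher) and 2 without tumor 40 (2 higher); the cause was not tested. No paired analysis was possible because the labels do not match tumors between the groups. Depth limits members with few reads: 12 had fewer than 50 in tumor 36, among them the 4 called without tumor 37.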
